A study of Caenorhabditis elegans with 2 samples.

Results

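Of the 11254 candidate DMD-4 regions that the authors' pooled ChIP-seq list places on the nuclear chromosomes of Caenorhabditis elegans, 1050 had their summit, the position of highest signal, inside an exon of a protein-coding gene and away from promoters. Summits in a promoter window, the stretch between 1000 bp before and 200 bp after the start of any protein-coding transcript, were left out. Among the exonic regions 595 summits lay in coding sequence, 31 in 5′ untranslated regions (5′ UTRs) and 424 in 3′ untranslated regions (3′ UTRs). A further 3627 regions of the list lay in promoters, 3276 in introns and 3301 between genes. Location alone chose the exonic regions, and no signal value entered the choice.

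DMD-4 belongs to the DM-domain family of transcription factors, which bind DNA through a zinc-containing fold first described in insect Doublesex and worm MAB-3 and are known for roles in sex-specific development. Such factors are usually studied at promoters and enhancers, and in the compact worm genome much regulatory sequence lies just upstream of genes or in introns. Exons carry the protein code and, in the 3′ UTR, the sites where messenger RNAs end and are regulated. ChIP-seq measures DNA, so a region in a UTR is a stretch of chromosome with that annotation and says nothing of RNA binding.

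There was 1 group of 2 biological replicates, numbered 1 and 2 in the labels, and no second condition. The material was whole L2 larvae of pooled sexes of strain OP418 (unc-119(tm4063) III; wgIs418), in which a transgene gives DMD-4 a GFP-FLAG tag at its C terminus. Both replicates therefore share the transgene and the strain, and a whole-larva sample cannot tell regions bound in a few cells from regions weakly bound in many. The lists hold called regions and no read counts, so depth is unknown and the intervals given are 95% intervals that cover the counting of regions only. The pooled list holds weak regions on purpose, because the authors' IDR step, a filter for regions that rank alike in both replicates, needs them: it kept 212 peaks, of which 185 were nuclear.

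The sequences round 4 strong summits are printed as examples and do not stand for the regions as a whole. They are read from the forward strand of RefSeq's WBcel235 genome, the same assembly as ce11, and the capital marks the summit base. The coding one lies in pks-1 (chrX:5429532-5429561), those in 5′ UTRs in C34C12.2 (chrIII:3456415-3456444) and H35N09.1 (chrX:8606640-8606669), and the one in a 3′ UTR in vhp-1 (chrII:5340726-5340755).
pks-1: cttatccaagagactCatctcgtgtccctt
C34C12.2: tttttgcgcgatgcaAgcgcgctccaccgc
H35N09.1: tgttgataaacgcgcAtggattgaatttaa
vhp-1: ttaaacctctactgaTtctggtctagcctg
Each of these 30-base stretches occurred once in the genome, on either strand, as did those round the summits of 1045 of the 1050 exonic regions. Over the list as a whole 98.9% of such stretches were unique.

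Further windows show the DNA words for which the summits were searched. ACAATGT and its reverse complement ACATTGT form the core bound by Doublesex-type DM domains, and TGTTGC is the core of the site bound by MAB-3. The windows come from coding sequence of C37C3.1 (chrV:7858216-7858245) and Y51B9A.9 (chrII:9397172-9397201), and from 3′ UTRs of bcl-11 (chrV:6362995-6363024), klc-2 (chrV:5576625-5576654), F45D3.1 (chrV:12528113-12528142) and Y105C5A.15 (chrIV:15722483-15722512). Capitals mark the word, as read on the forward strand.
C37C3.1: aaacaatgaagACAATGTgttctaaatggt
bcl-11: tacattcacacACATTGTtcacaagagtta
klc-2: gatgacggagtACAATGTcgagcaacaatc
F45D3.1: caatctgactcaTGTTGCactaccaattta
Y51B9A.9: gctcgcctccagTGTTGCctgaaaattcca
Y105C5A.15: aacattttcagtGCAACAgtgaaaataaaa
In klc-2, a kinesin light chain gene, the reverse complement of TGTTGC follows the DM core within the same window. In C37C3.1 the middle base of the DM core lay 4 bp from the summit.

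Coding sequence held few candidate regions for its size and 3′ UTRs held many. The exonic regions were 9.33% of the nuclear list on 21.6% of the nuclear genome. Coding sequence had 31.3 summits per Mb (28.8 to 33.9, exact Poisson interval), against 112 per Mb over the whole nuclear genome. 3′ UTRs had 181 per Mb (164 to 199), the highest density of the 6 kinds of sequence. Promoters had 138 per Mb, intergenic sequence 131.5 and introns 120.5, and the interval of 3′ UTRs overlapped none of theirs. 5′ UTRs had 111 per Mb with the wide interval of 75.3 to 157, since only 0.280 Mb of 5′ UTR lies outside promoter windows. The same order of coding sequence below and 3′ UTRs above the genome held in each replicate's own list. In replicate 1 coding sequence was at 0.396 times and 3′ UTRs at 1.53 times the density of that whole list, and in replicate 2 at 0.488 and 1.52 times. Coding sequence was thus less depleted in the longer single-replicate lists than in the pooled list, where it stood at 0.279 times.

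**Figure D1:**
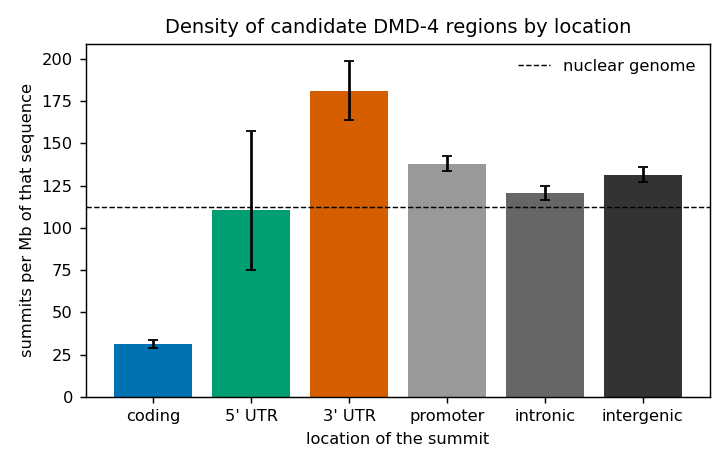
Candidate DMD-4 regions per Mb of each kind of sequence, with exact 95% Poisson intervals as error bars and the nuclear genome as a dashed line. The coding bar stands at 31.3 per Mb, below all others, and the 3′ UTR bar at 181 per Mb, above all others.

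Base composition differed between these kinds of sequence. In the 201 bp round each base, coding sequence had a median GC content of 39.8% and 3′ UTRs 32.3%, against 34.8% in promoters and 33.3% in both introns and intergenic sequence. Promoters, with a higher median GC than introns and intergenic sequence, had 138 summits per Mb (133 to 142). Introns had 120.5 and intergenic sequence 131.5 (127 to 136), and the intergenic interval overlapped that of promoters. The windows of the regions themselves were poorer in GC than the sequence they lay in: the median was 35.8% for coding regions, 32.3% for 5′ UTR regions against 35.3% of 5′ UTR bases, and 29.9% for 3′ UTR regions. Coding density fell at each step of GC, being 127 per Mb between 25% and 30% GC, 62.7 between 30% and 35%, 32.1 between 35% and 40%, 17.1 between 40% and 45% and 7.83 from 45% up. Intergenic density ran over the same first 4 steps at 202, 128, 66.9 and 48.9 per Mb. At every step from 25% GC up, the coding interval lay below the intergenic one without overlap. 3′ UTR density was 259 per Mb (220 to 303) between 25% and 30% GC, above the intergenic interval of 190 to 214. It was 155 per Mb (129.5 to 184) between 30% and 35%, where the intergenic interval of 120 to 137 overlapped it. The intervals of 3′ UTRs and intergenic sequence overlapped in the 4 remaining steps too. Those of 3′ UTRs and promoters overlapped at every step, the promoter interval being 199 to 226 between 25% and 30% GC. The part of GC content in the densities of coding sequence and of 3′ UTRs was not tested.

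**Figure D2:**
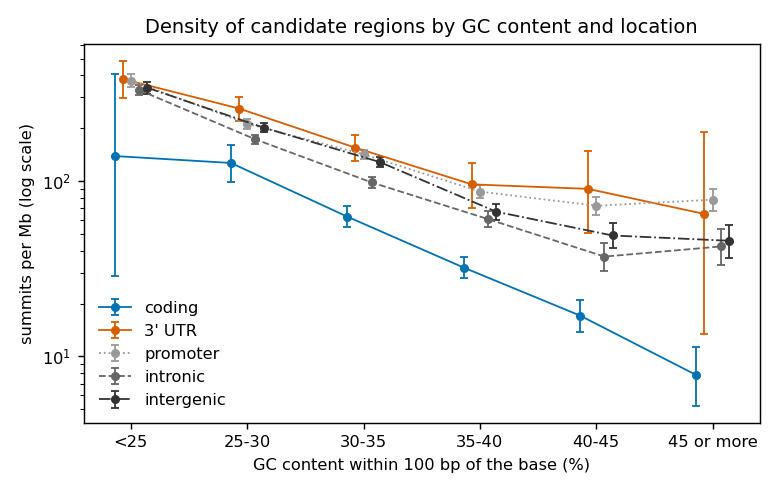
Candidate regions per Mb on a log scale by the GC content of the 201 bp round each base, for coding sequence, 3′ UTRs, promoters, introns and intergenic sequence, with exact 95% Poisson intervals. Coding sequence runs below the other lines and ends at 7.83 per Mb from 45% GC up.

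Coding summits were densest in short exons and near exon edges. Overlapping exons of all transcripts were merged into unbroken blocks for this measure. Blocks under 150 bp held 51.1 coding summits per Mb, those of 150 to 299 bp 38.0, those of 300 to 599 bp 22.7, those of 600 to 999 bp 24.4 and those of 1000 bp or more 9.68. By distance from the block's edge, coding density was 43.6 per Mb within 25 bp and 27.7 at 101 to 200 bp. Further in than 200 bp it was 6.71 per Mb (4.15 to 10.3), from 21 summits. GC content was not held fixed across these lengths and distances, and its part in them was not tested. Since each region was 350 bp wide, a region centred on a short exon reaches into introns: the median coding region was exonic over 68.3% of its bases, and 67 of 595 were exonic over at least 90%. By the exon numbering of the host gene 453 of the coding summits were in internal exons, 123 in the last and 19 in the first. No share of coding bases by exon place stands beside these counts, and the promoter window takes out sequence of first exons. A preference for internal exons is therefore not to be read from them. 3′ UTR summits numbered 214 per Mb within 25 bp of an edge, 206 at 26 to 50 bp, 160 at 51 to 100 bp, 159 at 101 to 200 bp and 190 beyond, with intervals that all overlapped. Their density was 141 per Mb in blocks of 150 to 299 bp and 210 per Mb in blocks of 1000 bp or more.

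**Figure D3:**
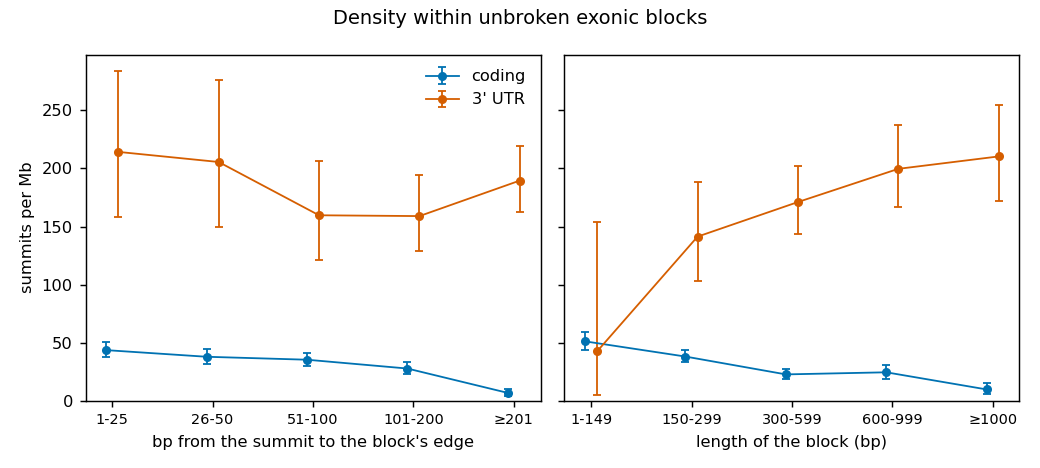
Coding and 3′ UTR summits per Mb by distance from the edge of the exonic block (left) and by the length of the block (right), with exact 95% Poisson intervals. Coding density is 43.6 per Mb within 25 bp of an edge and 6.71 beyond 200 bp, while 3′ UTR density lies between 159 and 214 per Mb over the 5 distances.

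The exonic regions were weak members of a list of mostly weak regions. The signal is the authors' value on a scale that the sources used here do not state, and it only ranks regions within a list. Its median was 16.1 in exonic regions, with 15.7 in coding, 16.2 in 5′ UTR and 16.5 in 3′ UTR regions, against 17.2 in promoters, 16.9 in intergenic sequence, 16.2 in introns and 16.6 in the whole nuclear list. The upper tail differed more: 51 exonic regions (4.86%) were in the top 10% of the list, 19 of them coding (3.19%) and 30 in 3′ UTRs (7.08%). The authors' q-value was at or below 0.05 for 35 exonic regions (3.33%, exact binomial interval 2.33 to 4.61), against 7.95% of the nuclear list, and these 35 were 13 coding, 2 in 5′ UTRs and 20 in 3′ UTRs. An overlap of at least 1 bp with an IDR peak was found for 6 exonic regions (0.571%, 0.210 to 1.24), against 1.83% of the nuclear list. The interval of exonic regions lay below the share of the list for both measures. For the q-value it overlapped that of intronic regions (5.16%, 4.43 to 5.97). Among the other locations, 3.23% of promoter regions, 1.82% of intergenic regions and 0.702% of intronic regions overlapped an IDR peak, and the interval of exonic regions overlapped that of intronic ones (0.446 to 1.05).

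**Figure D4:**
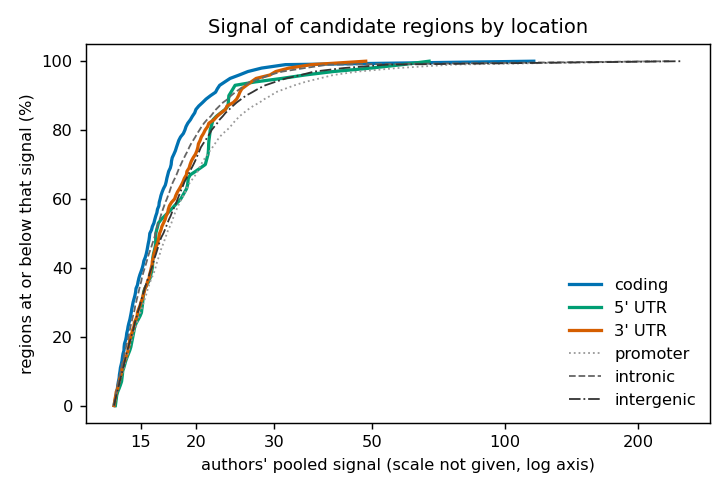
Cumulative share of candidate regions by the authors' pooled signal on a log axis, for each location. The curves begin together near a signal of 13.04 and the coding curve lies furthest left, with a 90th percentile of 21.6, against 24.9 in 3′ UTRs and 29.5 in promoters.

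A region of both replicates' own lists was overlapped by 336 exonic regions (32.0%, 29.2 to 34.9), against 39.1% of the nuclear list. Intronic regions stood at 34.6% (33.0 to 36.2), an interval that overlapped the exonic one. By class these were 170 coding regions (28.6%), 14 in 5′ UTRs (45.2%) and 152 in 3′ UTRs (35.8%). No region of either replicate was overlapped by 82 exonic regions (7.81%), of which 54 were coding (9.08% of coding regions). This compares with 6.42% of the nuclear list and 7.33% of intronic regions. The pooled list was called on the reads of both replicates together, so these overlaps are no independent check. Among the 336, the highest overlapping signals of the replicates ranked in almost unrelated order, with a Spearman rho of 0.07 and a Pearson r of 0.28 on the log2 scale. Over the 4398 such regions of the nuclear list these values were 0.24 and 0.48. Both sets hold only regions called in the pooled list and in each replicate, which narrows the range of the values. The coefficients therefore do not measure how well the libraries agree at large. Some regions also drew the same replicate values as a neighbour. The points share both libraries, and an order among weak exonic regions is therefore not to be read from their signals. In 5′ UTRs 26 of 31 regions (83.9%) overlapped one of replicate 1, against 67.7% of the nuclear list, and 17 of 31 (54.8%) one of replicate 2, against 65.0%.

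Of the exonic regions, 4 (0.381%) were themselves IDR peaks, with the same start and end, against 1.64% of the nuclear list. The strongest was in coding exon 22 of 30 of pks-1, a very large polyketide synthase gene (WBGene00016558, chrX:5429372-5429721). Its pooled signal was 116, rank 27 of the nuclear list, with 64.2 in replicate 1 and 55.2 in replicate 2. Its summit lay 15737 bp inside the gene, and the nearest protein-coding start site, that of C41A3.2, was at -15197 bp (negative where the summit is upstream of it).

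The second peak was in the 5′ UTR of C34C12.2 (WBGene00007921, chrIII:3456255-3456604), in a first exon of 2829 bp. Its signal was 67.4 pooled, 40.1 in replicate 1 and 25.9 in replicate 2. The 3′ UTR peak of vhp-1, which encodes a MAP kinase phosphatase (WBGene00006923, chrII:5340566-5340915), had 47.5 pooled, 22.2 in replicate 1 and 21.7 in replicate 2. That of F21F3.6 (WBGene00017675, chrI:4911734-4912083) had 48.4 pooled, 23.8 in replicate 1 and 26.9 in replicate 2, and its gene runs into the oppositely oriented pgal-1. In all 4 the summits of both replicates fell in the same class of exon, at most 36 bp from the pooled summit.

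The other 2 exonic regions counted as IDR overlaps were candidate regions of their own that shared part of their bases with an intronic peak. A coding region of dhc-4, a dynein heavy chain gene (chrIII:10989733-10990082, pooled signal 43.0), shared 151 bp with an IDR peak of signal 77.8 whose summit was intronic. One of pxn-1, which encodes a peroxidasin of the extracellular matrix (chrV:8500612-8500961, pooled signal 17.9), shared 125 bp with an intronic IDR peak of signal 58.9. The replicate values set against them, 54.9 in replicate 1 and 27.8 in replicate 2 for dhc-4 and 31.1 in replicate 1 and 28.7 in replicate 2 for pxn-1, came from regions whose own summits were intronic. In all 59 exonic regions (5.62%) overlapped another candidate region, against 8.16% of the nuclear list.

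Below pks-1 and dhc-4, coding regions found in both replicates fell off evenly. mix-1 encodes an SMC protein shared by the condensin and X-chromosome dosage compensation complexes. Its exon 13 of 15 (chrII:10840029-10840378) had 39.7 pooled, 13.9 in replicate 1 and 26.5 in replicate 2. T28F4.4 followed with 35.6 pooled, 21.7 in replicate 1 and 10.3 in replicate 2, and its window held a DM core. suro-1 had 35.2 pooled, 13.8 in replicate 1 and 20.3 in replicate 2, and its window held the MAB-3 core. Of these 3 genes T28F4.4 was highest in replicate 1 and lowest in replicate 2, so their order is not firm. Next by pooled signal came C08D8.1 (31.7), uig-1, a Cdc42 exchange factor (30.9), and mrps-5, a mitochondrial ribosomal protein (29.4). Then npr-34, of the neuropeptide receptor family (28.9), and rab-5, an early endosome GTPase (28.4), completed the 10 strongest found in both replicates. The nearest start site was the host gene's own in uig-1 (812 bp), mrps-5 (1666 bp) and rab-5 (408 bp).

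5′ UTR regions lay in exceptionally long leader exons. Of the 31 summits, 24 were in exonic blocks of at least 1000 bp, which hold 53.9% of the 5′ UTR sequence outside promoter windows, and 25 were in first exons. A leader of under 200 bp with no intron lies wholly within the promoter window of its start site and cannot enter. H35N09.1 (chrX:8606480-8606829, first exon of 2048 bp) had 38.0 pooled, 26.9 in replicate 1 and 16.8 in replicate 2. F22D3.4 had 24.6 pooled, 16.4 in replicate 1 and 7.01 in replicate 2, and rsbp-1, named as an RGS-binding protein gene, had 23.6 pooled, 13.9 in replicate 1 and 10.6 in replicate 2. The signal dropped quickly below the first 2 genes. nhr-179, a nuclear hormone receptor gene (21.9), C08D8.7 (21.5) and sto-2, a stomatin gene (21.4), came next among regions found in both replicates. srh-70, a chemoreceptor gene (19.2), fos-1, the worm Fos transcription factor (19.1), and F26F12.3 (17.5) made up the rest of the 10. Stronger regions not found in both replicates were left out, such as that of shc-1 (23.7), which matched no region of replicate 1. The sole DM-domain gene among the exonic hosts was dmd-7, whose 5′ UTR region had 16.0 pooled and 13.7 in replicate 1 and matched no region of replicate 2. dmd-4 itself held no exonic region.

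By the rule, 3′ UTR summits lie past the stop codon. The median one was 212 bp past the stop codon (quartiles 93.8 and 422) and 126 bp before the end of the gene. After F21F3.6 and vhp-1, the strongest found in both replicates was in rsp-8, which encodes an SR-type splicing factor (chrIII:11830748-11831097), with 39.0 pooled, 27.6 in replicate 1 and 11.6 in replicate 2. mnk-1, a kinase gene of the MAP kinase-interacting family (chrII:10543297-10543646), had 37.5 pooled, 16.9 in replicate 1 and 19.5 in replicate 2, and its summit also lay inside an annotated noncoding RNA gene. srx-38, a chemoreceptor gene (chrV:5153738-5154087), had 36.8 pooled, 18.6 in replicate 1 and 21.8 in replicate 2, only 7 bp before the gene's end. Of the 10 strongest 3′ UTR regions, that of rsp-8 had the highest value of replicate 1. nra-1, a copine gene (35.5), unk-1 (35.1), T10B10.4 (34.8), F58D5.5 (32.9) and stdh-1, a steroid dehydrogenase gene (31.9), completed the 10. The replicates ordered the 10 differently: unk-1 had the lowest of their values in replicate 1 (9.53) and the highest in replicate 2 (27.0).

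**Figure D5:**
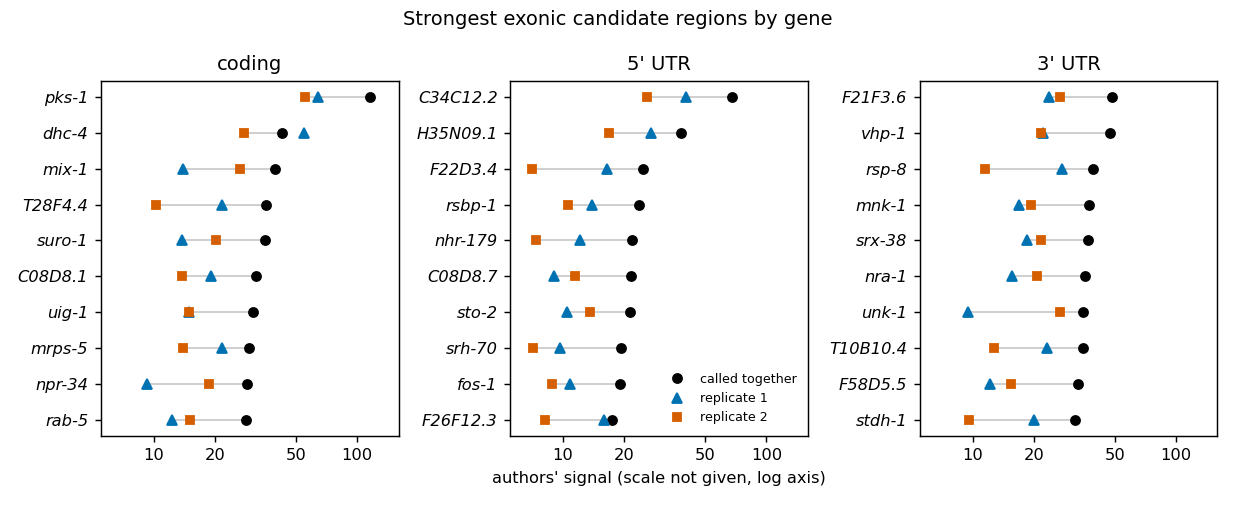
Signal of the 10 strongest exonic regions of each class that overlap a region of both replicates, by gene, on a log axis: the pooled list (circles), replicate 1 (triangles) and replicate 2 (squares). Each symbol is read against others of its own list: pks-1 is highest among coding regions in all 3 lists, at 116 pooled, 64.2 in replicate 1 and 55.2 in replicate 2. The replicate values of dhc-4 belong to regions with intronic summits.

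The 1050 regions were spread thinly over genes. Exons of 996 genes, 4.99% of 19973, held at least 1 region, 57 genes held 2 and 6 held 3. The 6 were F22D3.4, akap-1, which encodes a kinase anchor protein, catp-8, a P-type ATPase gene, mes-3, of the worm Polycomb-like complex, ncl-1, a regulator of nucleolar size, and try-6, a trypsin-like protease gene. Their signals ran from 13.5 in mes-3 to 24.6 in F22D3.4, and none of the 6 held a region with a q-value at or below 0.05. try-6 packed its 3 coding regions into 1.12 kb of exon, with signals of 16.1 to 21.8. All 3 overlapped a region of replicate 2 and none a region of replicate 1. catp-8 likewise had all 3, with 14.3 to 24.1, in replicate 2 alone. Next by symbol among the genes with 2 were C05D11.5 (13.4 and 16.2) and C05D11.8 (20.1 and 25.3), and both regions of C05D11.8 drew the same values from the replicates, 7.78 in replicate 1 and 16.0 in replicate 2. Of the 1050 regions, 350 (33.3%) had a host gene with a candidate region in its promoter window as well, against 18.1% of all protein-coding genes. The first share counts regions and the second counts genes, so a gene with 2 or 3 regions counts more than once in the first. Gene length and the number of start sites per gene, which differ between genes, were not taken into account there.

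Transcriptional regulators, neuronal genes and housekeeping genes were counted in lists drawn up from gene symbols, per gene and per Mb of exon, beside 4.99% of all genes and 48.2 regions per Mb. Nuclear hormone receptor genes held regions in 15 of 274 genes (5.47%, 53.6 per Mb). The strongest was the 3′ UTR of nhr-66 (29.7 pooled, 25.7 in replicate 1, none in replicate 2), and nhr-6, the worm NR4A receptor, had 19.6 in its 3′ UTR. The homeobox list held regions in 6 of 87 genes (65.3 per Mb, 24.0 to 142), led by ceh-57 with 21.2. It rests on symbols, such as that of its member lim-9, and not on a homeodomain in each protein. In both lists the interval spanned the value of all genes. Genes of sex determination and dosage compensation held 3 regions in 2 of 23 genes (43.7 per Mb, 9.02 to 128), an interval that spans the value of all genes. They were the pair in mix-1 (39.7 and 14.6) and the 3′ UTR of dpy-27, an SMC protein specific to dosage compensation (25.4). The weaker mix-1 region and that of dpy-27 overlapped a region of replicate 1 alone. Heterochronic genes, which time larval development, held 2 regions in 1 of 9 genes (82.2 per Mb, 9.96 to 297). That interval also spans the value of all genes. Both regions were in lin-28, an RNA-binding protein gene. Its 3′ UTR had 20.2 pooled, 13.5 in replicate 1 and 13.7 in replicate 2. Its coding sequence had 17.5 pooled and 11.9 in replicate 2, and matched no region of replicate 1.

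Genes of synapses and ion channels held regions in 15 of 163 genes (9.20%, 5.24 to 14.7 by the exact binomial interval), but per Mb of exon they stood at 54.5 (31.2 to 88.5), near all genes. Their strongest were in the 3′ UTRs of unc-31, which encodes a factor for dense-core vesicle release (19.9), and unc-64, the worm syntaxin (19.5). Muscle sarcomere genes behaved likewise, with 6 of 40 genes but 27.3 regions per Mb. The first of these was exon 5 of 49 of unc-68, the ryanodine receptor (20.8), followed by unc-89, a giant obscurin-like protein (16.3), and pat-3, a beta integrin (14.8, in neither replicate). Genes of adhesion and matrix held 5 regions in 35 genes (18.8 per Mb, 6.11 to 43.9), with hmp-1, the alpha-catenin, at 20.4 and agr-1, the agrin, at 19.6. In shares of genes, the muscle list stood at 15% (5.71 to 29.8) and the adhesion list at 14.3% (4.81 to 30.3). The adhesion interval includes the 4.99% of all genes. Of the regions named in these lists, those of unc-31, unc-68 and hmp-1 overlapped a region of replicate 1 alone. Those of unc-64 and unc-89 overlapped one of replicate 2 alone, and that of agr-1 overlapped both.

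Chemoreceptor genes held 40 regions in 1262 genes (3.17%, 43.5 per Mb), of which 35 were coding, and below srx-38 the strongest were str-48 (23.4) and sra-27 (21.7). C-type lectin genes held 1 region in 240 genes, at 4.95 per Mb with an upper bound of 27.6, below the 48.2 of all genes. This list and that of adhesion and matrix were the only 2 of 23 whose interval per Mb left out the value of all genes, with no allowance for the number of lists. F-box genes held 7 in 322 (27.3 per Mb), detoxification genes 8 in 185 (39.7 per Mb), led by the 3′ UTR of cyp-13A2, a cytochrome P450 gene (27.2), and collagen genes 4 in 179 (26.0 per Mb), led by dpy-8 (19.0). Genes of the germline and small RNA pathways held 4 in 38 (45.6 per Mb, 12.4 to 117), led by rde-8, an RNA interference factor (29.1). Among housekeeping genes, ribosomal proteins held 1 region in 81 genes (rps-2, 16.1), translation factors 2 in 40, chaperones 2 in 59 and proteasome and ubiquitin genes 1 in 40, the last in ubq-1 (14.9). Neuropeptide and insulin-like genes held 3 in 141, led by nlp-47 (17.7), and kinesin and dynein genes 2 in 22, dhc-4 and klp-11 (17.1). The region of klp-11 overlapped one of replicate 1 alone, and that of cyp-13A2 one of replicate 2 alone. No exonic region fell in 80 histone, 98 sperm protein or 6 vitellogenin genes. For histone and sperm protein genes, many of whose exons lie wholly within promoter windows, only 0.00698 and 0.0107 Mb of exon could be counted, and the upper bounds of 529 and 345 regions per Mb leave their density unmeasured.

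Over all exonic summits together, the DM-domain words were no more common than in exonic sequence at large. In the forward and reverse sequence of up to 100 bp on each side of the summit, ACAATGT or ACATTGT occurred at 37 exonic summits (3.52%, 2.49 to 4.82), against 3.35% of the nuclear list and 3.93% of all exonic bases given the same window. By class it occurred at 16 coding summits (2.69%, against 3.93% of coding bases), at 2 in 5′ UTRs (6.45%, 0.791 to 21.4, against 3.48% of 5′ UTR bases) and at 19 in 3′ UTRs (4.48%, against 3.96% of 3′ UTR bases). TGTTGC occurred at 79 exonic summits (7.52%, 6.00 to 9.29), against 7.78% of the nuclear list and 11.2% of exonic bases. For coding sequence these were 8.57% of summits (6.45 to 11.1) and 11.7% of bases, so the word was scarcer at coding summits than in coding sequence at large. The nuclear list differed from its bases in the same direction, with 7.78% of summits and 9.07% of bases, and so did promoters, with 7.91% and 9.23%. The lower GC of coding summits moved with the word, and its part was not tested. In 5′ UTRs TGTTGC was at 0 of 31 summits, where the exact interval reaches 11.2%, and 9.79% of 5′ UTR bases have it. Both words can share the letters TGT. None of the 6 exonic regions that overlap IDR peaks held either word. A match is a run of letters and not a site.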

How the data were processed

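Per the labels, DMD-4 was assayed by ChIP-seq in whole L2 larvae after sonication. Per the deposited file descriptions, the authors called candidate regions per replicate and on both replicates together, against a control, and derived IDR peaks from these lists. The sources used here do not state the aligner, caller, versions, IDR threshold or control. The deposited signal is never negative, the deposited −log10 q-value was used at a threshold of 0.05, and the deposited summit offset (other) is in bp. Lists on ce10 were not used. Depth per sample is unknown.

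Summits, 1-based on ce11, were placed by Ensembl release 115, in the order promoter, coding, 5′ UTR, 3′ UTR, intron, intergenic. Replicate values are the highest signal among overlapping regions of that replicate. Shares have Clopper-Pearson and densities exact Poisson intervals; no hypothesis test was run, since 1 group gives no contrast. Named regions were every IDR overlap, the 10 strongest of each class found in both replicates, the 8 genes with most regions, up to 3 per list of 23, and dmd-4. Regions and lists were chosen with earlier results of these data known. Alternatives were other windows, midpoints, transcripts, replicates, overlaps and list depths. Python 3.11.15, numpy 2.4.6, pandas 2.3.3, scipy 1.17.1 and matplotlib 3.10.9 were used; the code was tested on simulated data.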

Additional observations from a re-analysis of the deposited data

How the results depend on the processing

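Of 86 values over 12 results, 51 stayed within the interval of the reported value (for counts of regions, within 1.5 times). All those under midpoints, the longest transcript per gene, the narrower promoter window, the other class order and exact IDR intervals did. The 10 values under midpoints could hardly move and show no robustness. The exonic regions were 350 bp wide with the summit at their centre, so positions stayed almost the same. With a window of 2000 bp upstream to 500 bp downstream the 5′ UTR share was 1.59% and the 3′ UTR share 43.8%. With no promoter exclusion there were 1632 exonic regions, 52.9% coding, 11.4% in 5′ UTRs and 35.7% in 3′ UTRs, and coding density was 34.9 per Mb. Taking only the stronger part of the list, at or above its median signal, left 458 regions, 51.3% coding and 45.6% in 3′ UTRs. Their median signal was 19.6, 1.31% overlapped IDR peaks and 49.1% overlapped both replicates. That cut is on the signal itself, so the higher median follows from it and the higher overlap shares are no separate result. An overlap of 50% of both regions gave 24% for both replicates. ACAATGT or ACATTGT was at 1.43% and TGTTGC at 3.905% of summits within 50 bp, and at 4.86% and 11.6% within 150 bp, as the searched length fixes.

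Leaving out a replicate, which applies the rule to the other's own list, gave ranges of 1993 to 2379 regions, 65.9% to 70.95% coding, 1.89% to 2.61% in 5′ UTRs, 27.15% to 31.5% in 3′ UTRs, 0.252% to 0.351% overlapping IDR peaks, a median signal of 7.995 to 8.77, and 19.9% to 23.6% overlapping the other replicate. Densities per Mb, an alternative chosen after seeing the data, were 69.05 to 88.7 coding, 161 to 186 in 5′ UTRs and 267 to 275 in 3′ UTRs. The single-replicate lists are longer (17531 and 18240 regions), and the cause of the larger coding share was not tested. No paired analysis was possible because there was 1 group. Without read counts, no limit from depth can be given.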

Other observations

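Regions on the X chromosome, the chromosome on which dosage compensation acts, did not differ from autosomal ones in 3′ UTR density beyond their intervals. There were 168 3′ UTR summits per Mb on X (135 to 208) and 184 on the autosomes (165 to 205), although the list as a whole was denser on X, with 137 against 107 per Mb. Coding density was 36.6 per Mb on X (30.03 to 44.1) and 30.3 on the autosomes (27.7 to 33.1). Over all exonic regions X had 57.0 per Mb and the autosomes 46.8. Chromosome III was close to X with 56.0, and chromosome V was lowest with 39.6. The median signal of exonic regions was 16.5 on X and 16.0 on the autosomes.

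Where genes end facing each other, 3′ UTR regions were about as common as the sequence there. The next gene was convergent for 252 of 424 summits (59.4%, 54.6 to 64.2), against 58.7% of 3′ UTR bases, and convergent with ends under 500 bp apart for 43.9% (39.1 to 48.7), against 39.4% of bases. AATAAA, the signal for cleavage and polyadenylation, read along the host gene's strand, lay within 100 bp of 36.1% of 3′ UTR summits (31.5 to 40.9), against 33.5% of 3′ UTR bases. At coding summits it was at 20.5% (17.3 to 24.0), against 11.2% of coding bases. Coding summits are also poorer in GC than coding bases (35.8% against 39.8%), and the part of GC in this was not tested.

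At the limit of the promoter window, 46 exonic regions lay 201 to 300 bp downstream of their nearest start site. Exon summits at 201 to 300 bp, which include 18 taken by another start site's window, had a median signal of 16.5. The 89 exon summits at 101 to 200 bp that the rule left out had a median of 15.9.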
